A study of Mus musculus with 8 samples.

Results

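Amino acid catabolism and the urea cycle were followed in mouse liver through 52 genes, chosen by name from the 56748 Ensembl gene IDs of the count table. All 52 were found in the table and all passed the filter on low counts. They were sorted by role into 10 branches: the urea cycle, transamination and glutamate, tryptophan, tyrosine, histidine, proline and ornithine, methionine and sulfur, branched-chain amino acids, lysine, and serine and glycine. Another 101 genes of the same pathways, their transporters and their regulators served as companions, and 95 of them were tested.

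The livers came from 4 libraries labelled miR-93 knockout (KO) and 4 labelled wild type (WT). All 8 libraries shared a high fat and high fructose diet, the label of metabolic dysfunction-associated steatotic liver disease (MASLD) and the time of 16 weeks. The comparison addresses how liver transcripts differ without this microRNA. The labels give no strain, sex or age, do not say in which cells miR-93 was deleted, and do not tell whether each library is another animal, which means that p-values here reflect the spread between libraries only.

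The liver is the main organ in which amino acids are broken down. Aminotransferases move the amino group to glutamate or aspartate, the urea cycle turns the released nitrogen into urea, and branch-specific enzymes convert the carbon skeletons into intermediates of gluconeogenesis, ketogenesis and the citric acid cycle. Hepatocytes around the portal vein carry most of ureagenesis and of amino acid catabolism, while a thin layer around the central vein captures leftover ammonium as glutamine. Many of these genes are known to respond to glucagon, glucocorticoids and feeding.

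The microRNA removed in the knockout is shown first, with the 7 bases that pair with targets (the seed, bases 2 to 8) in capitals, as RefSeq gives it on the minus strand of GRCm38.p6 at chr5:138165574-138165596.
mmu-miR-93-5p: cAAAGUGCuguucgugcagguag
A site complementary to this seed reads GCACTTT in DNA letters. It was found in the longest annotated 3′ UTR (GENCODE M21) of 2 of the 52 genes, Glud1 and Sds, which is 3.85%, against 14.6% of the 11579 tested genes with an annotated 3′ UTR. The UTRs of the 52 genes had a median length of 715.5 bases, against 1164 bases over the tested genes. The sites are shown with their flanks and the seed match in capitals, because Sds is among the genes that differed most.
Glud1 site: gatttctgGCACTTTttgtttga
Sds site: tataatgtGCACTTTtccattgt
A match is a description of these letters and not of binding. Glud1 was not called, and Sds was lower in the knockout.

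RefSeq promoter windows, from 250 bases before to 50 bases after the transcription start on GRCm38.p6, were at hand for 40 of the 52 genes, with 45 windows in all because some genes have several. Motifs were searched as TATAAA on the given strand and, on both strands, the cyclic AMP response element TGACGTCA, a C/EBP palindrome TTGCGCAA, an HNF4 sequence CAAAGTCCA, a TCF site ATCAAAG and the E-box CACGTG. The first of these, TATAAA, was in 2 of the 45 windows of these genes and in 8.32% of all 32851 windows. The E-box was in 3 windows (7.15% of all), the TCF site in 3 (3.73% of all) and the HNF4 sequence in 1 (0.475% of all). TGACGTCA (1.79% of all) and TTGCGCAA (0.183% of all) were in none of the 45. The window of Got1, among the genes that fell furthest, is printed beside those of Tdo2 and Ftcd, with TATAAA in capitals. Tdo2 had the largest rise among the called genes.
Got1, chr19:43524556-43524855, minus strand: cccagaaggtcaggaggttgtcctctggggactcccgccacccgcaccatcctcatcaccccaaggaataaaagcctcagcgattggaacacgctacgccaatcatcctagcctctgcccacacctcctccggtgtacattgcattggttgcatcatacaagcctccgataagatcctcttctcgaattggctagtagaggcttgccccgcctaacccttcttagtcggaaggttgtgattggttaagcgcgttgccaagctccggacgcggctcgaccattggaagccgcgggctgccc
Tdo2, chr3:81975679-81975978, minus strand: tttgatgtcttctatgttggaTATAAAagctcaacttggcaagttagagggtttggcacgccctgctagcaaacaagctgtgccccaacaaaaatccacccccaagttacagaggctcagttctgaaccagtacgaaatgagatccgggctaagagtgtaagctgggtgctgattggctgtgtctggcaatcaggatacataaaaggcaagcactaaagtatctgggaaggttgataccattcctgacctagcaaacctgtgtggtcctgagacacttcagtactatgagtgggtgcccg
Ftcd, chr10:76575398-76575697, plus strand: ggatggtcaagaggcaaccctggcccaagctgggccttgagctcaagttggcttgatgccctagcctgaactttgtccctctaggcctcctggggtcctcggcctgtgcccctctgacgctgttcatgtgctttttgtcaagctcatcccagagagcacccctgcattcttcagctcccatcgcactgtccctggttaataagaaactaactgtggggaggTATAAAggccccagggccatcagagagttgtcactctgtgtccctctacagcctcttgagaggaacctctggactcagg
TATAAA began 29 bases before the start in Ftcd and 229 bases before it in Tdo2. Neither it nor any other motif searched was in the window of Got1.

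Depth was 9187279 to 10966019 counts per knockout library and 5085860 to 7451026 per wild-type library. The 37 mitochondrially encoded genes took 8.08% to 15.03% of the counts in the knockout and 25.4% to 77.8% in the wild type, so the groups did not overlap (exact permutation test, two-sided p = 0.0286, the smallest that 70 assignments allow). The highest share belonged to wild-type replicate 4 (95% exact binomial interval 77.7% to 77.8%, for counting error only). That library also had counts for 14287 genes, against 18412 to 20148 in the other 7, and it stood apart for many of the 52 genes. Results are therefore given with and without it. Wild-type replicates 1, 2 and 3 had mitochondrial shares of 25.4%, 35.5% and 27.9%, also above every knockout library, and a lower depth than any of them. In either fit, genotype thus cannot be told apart from mitochondrial share or depth. Mir93 itself was listed at 0 counts in all 8 libraries, so it could not check the labels. Levels throughout are counts scaled to library size (CPM) after adjustment by the trimmed mean of M-values (TMM), whose factors were 1.25 to 1.30 in the knockout and 0.350 to 1.07 in the wild type. Hepatocyte markers were abundant in every library: the 8 listed summed to 45338 to 51596 CPM in the knockout and 53012 to 65552 CPM in the wild type. Kidney tubule markers, whose tissue shares many of these enzymes, summed to at most 0.0814 CPM in the knockout and 0.253 CPM in the wild type, and Slc12a1 and Kap were at 0 everywhere. Of the exocrine pancreas markers, Pnlip and Cpa1 were at 0 everywhere, and the 4 summed to 6.93 to 8.96 CPM in the knockout and 6.19 to 8.84 CPM in the wild type.

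Fold changes are given as log2 of knockout over wild type ± SE. Of the 52 genes, 16 fell and 4 rose in the knockout at an adjusted p under 0.05, and 32 were not called. The 20 called genes are 38.5% of the 52, where 21% of the 13204 genes tested were called. Falls thus took 30.8% of the genes, where 10.7% of all genes fell, and rises took 7.69%, where 10.4% of all genes rose. The median log2 fold change of the 52 was -0.35, and that of all genes tested was -0.01. No library overlapped between the groups for 15 genes lower and 8 higher in the knockout, where 14% and 16.3% of all genes did the same. In bulk tissue, fewer cells of a type and less RNA per cell cannot be told apart.

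Without wild-type replicate 4, 28 of the 52 genes fell and 10 rose, where 17.5% of the 13777 genes then tested fell and 17.8% rose (35.2% called in all), and the median was -0.30. All 20 calls made with 8 libraries were kept and 18 were added. Leaving out another library lowered the counts instead. The falling genes numbered 10, 10, 9 and 9 without knockout replicates 1, 2, 3 and 4. They numbered 14, 10 and 11 without wild-type replicates 1, 2 and 3. Of all genes, 7.79%, 5.57%, 6.44% and 5.52% fell without those knockout libraries, and 10.1%, 6.85% and 8.39% without those wild-type libraries. Rising genes numbered 2 without knockout replicate 2, 2 without knockout replicate 4 and 3 without any other of these libraries. Of all genes, 5.77% to 9.36% rose in these fits. Of the 20 called genes, 11 stayed called whichever library was left out: Acmsd, Got1, Sds, Gls2, Cth, Uroc1, Ftcd, Asl, Tat, Tdo2 and Mat1a. Ass1, Kynu, Amdhd1 and Bckdha lost their calls when the library left out was any but wild-type replicate 4. The other 5, Hgd, Prodh2, Aldh4a1, Bcat2 and Bckdhb, lost theirs without at least 1 library. In the fits that lost a call, adjusted p ran from 0.0503 to 0.138 over these 9 genes. When libraries were scaled by size alone, the median of all genes moved to 0.54 and only Acmsd and Got1 stayed called. Relative to that shift all 20 kept their direction, but taking off the median nearly restores the TMM scale, so this is no separate check. The value itself changed sign for Hgd, to 0.03, and for Prodh2, to 0.01.

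**Figure D1:**
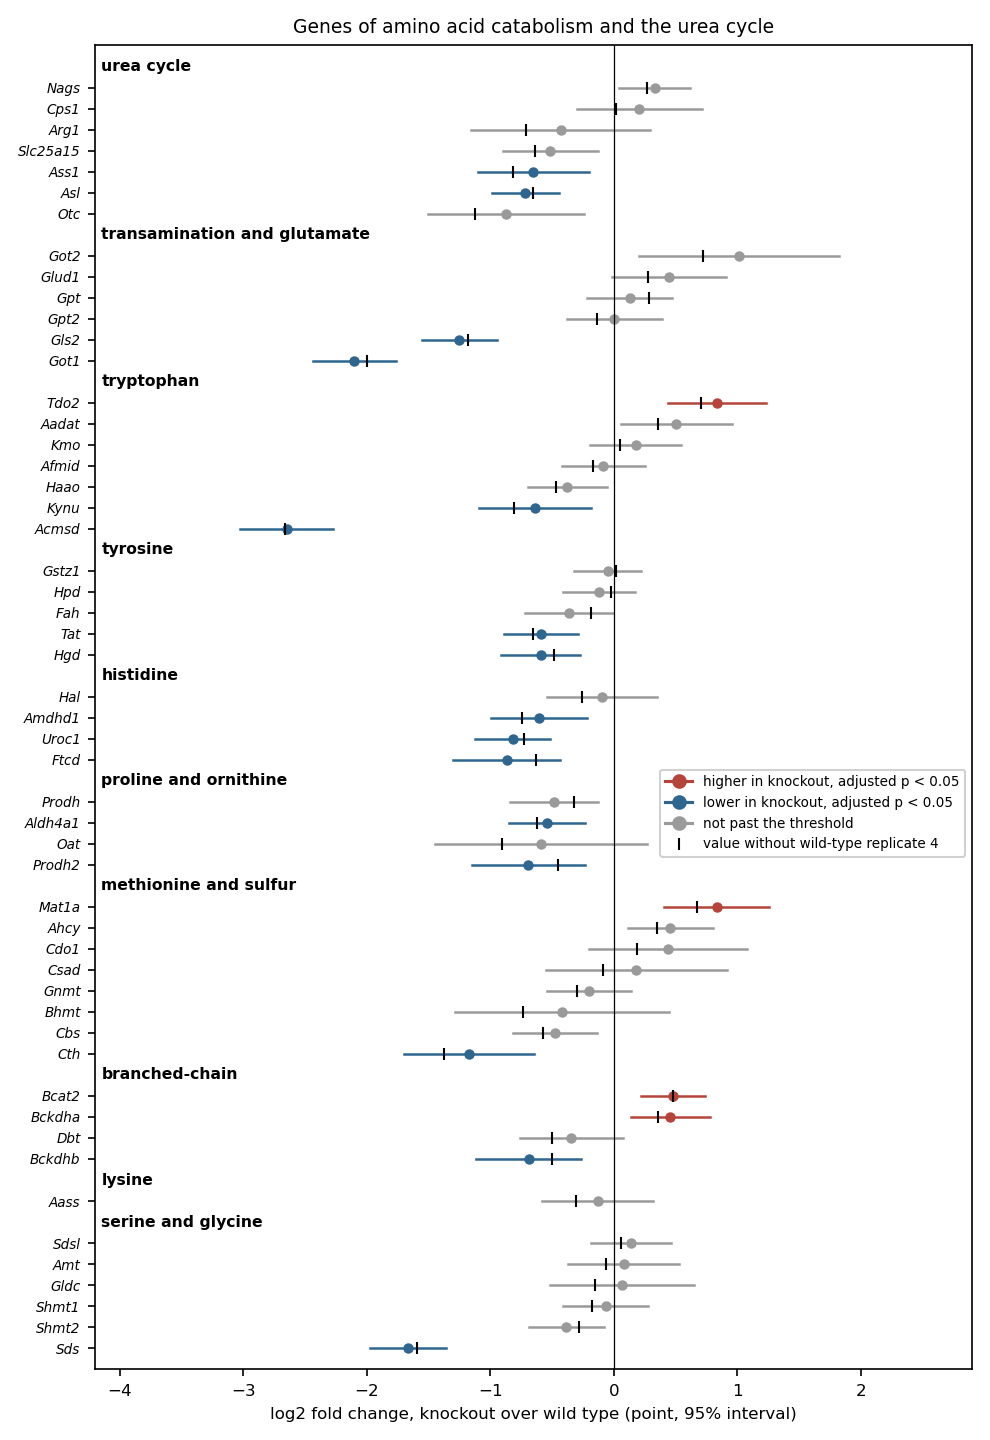
Log2 fold change of each of the 52 genes, knockout over wild type, by branch (point, with its 95% interval as a line), coloured by the call at an adjusted p under 0.05, with a black tick for the value without wild-type replicate 4. Acmsd, Got1, Sds, Gls2 and Cth lie beyond -1 on the lower side, and Got2, at 1.01 and not called, is the only gene beyond 1 on the higher side.

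Levels of different genes were set side by side per kilobase of annotated exon, with all exons of a gene merged. That length can exceed the longest coding transcript, as for Hpd (2128 against 1404 bases), while both were 3468 bases for Mat1a. The ranks below hold for merged exons only and could differ with transcript length. On that scale Mat1a was the most abundant of the 52 in the knockout at 1026 CPM per kb, and had rank 6 in the wild type at 576. Ass1 led in the wild type at 1246 CPM per kb and had rank 3 in the knockout at 793. Sds, rank 2 in the wild type at 1041 CPM per kb, had rank 9 in the knockout at 328. At the low end, Acmsd had 2.53 CPM per kb in the knockout, the least of the 52, and 15.9 in the wild type.

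In the urea cycle, the cytosolic enzymes Ass1 and Asl, which build and split argininosuccinate, were called lower with 8 libraries. The call of Ass1 was lost when any library but wild-type replicate 4 was left out. None of the mitochondrial steps was called with 8 libraries. Without wild-type replicate 4, Otc and Slc25a15 were called lower and Nags higher. Asl, argininosuccinate lyase, had 645, 651, 684 and 659 CPM in the knockout and 1023, 1034, 1083 and 1197 CPM in the wild type. Every knockout library lay below every wild-type library, and the log2 fold change was -0.72 ± 0.12 (adjusted p = 0.00244). Ass1, argininosuccinate synthase, had 1645, 2038, 1936 and 2041 CPM in the knockout and 3592, 3103, 3505 and 1831 CPM in the wild type. Wild-type replicate 4 lay inside the knockout range and the other 3 wild-type libraries above it. Ass1 fell by 0.65 ± 0.20 on the log2 scale (adjusted p = 0.043), and its value without wild-type replicate 4 was -0.82 (adjusted p = 1.42e-07).

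Otc, ornithine transcarbamylase, had 216, 246, 258 and 255 CPM in the knockout and 556, 506, 541 and 178 CPM in the wild type. The groups overlapped through wild-type replicate 4 alone, and the log2 fold change of -0.87 ± 0.29 was not called (adjusted p = 0.0527), while without that library it was -1.12 and called (adjusted p = 5.21e-10). Arg1, arginase, which releases urea, and Slc25a15, the mitochondrial ornithine carrier, behaved alike in this respect: their values were -0.43 and -0.52 with 8 libraries (adjusted p = 0.378 and 0.0577), and -0.71 and -0.64 without wild-type replicate 4, both then called. Cps1, carbamoyl phosphate synthetase, the entry step for ammonia, had a log2 fold change of 0.21 with a 95% interval from -0.30 to 0.71, and of 0.02 without wild-type replicate 4. Nags, which makes the activator of Cps1, averaged 48.8 ± 2.85 CPM in the knockout and 38.4 ± 5.21 CPM in the wild type (SD, n = 4 each), a value of 0.33 that was not called (adjusted p = 0.0954). It was called without wild-type replicate 4 at 0.27 (adjusted p = 0.0423).

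In transamination and glutamate metabolism, the cytosolic and mitochondrial aspartate aminotransferases had values of opposite sign. Got1, the cytosolic enzyme, had 137, 175, 151 and 169.7 CPM in the knockout and 611, 684, 609.8 and 811 CPM in the wild type. The groups were far apart, with a 4.29-fold lower level in the knockout (log2 fold change -2.10 ± 0.15, adjusted p = 6.09e-06), and the call held under all 18 alternative settings. Got2, the mitochondrial enzyme, had 324, 408, 359.6 and 408 CPM in the knockout and 263, 184, 240.1 and 50.05 CPM in the wild type. Its groups did not overlap either, but wild-type replicate 4 was far below the other 3, and the log2 fold change of 1.01 ± 0.37 was not called (adjusted p = 0.0736). Without that library it was 0.72 and called (adjusted p = 2.61e-05). Gm45760, whose exons overlap those of Got2 on the other strand, held 8.10% as many counts and was called higher at 1.78.

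Gls2, the liver-type glutaminase that frees ammonia from glutamine, had 255, 319.8, 303 and 317 CPM in the knockout and 697, 664, 679 and 809.7 CPM in the wild type. No libraries overlapped, and Gls2 fell by 1.25 ± 0.14 on the log2 scale (adjusted p = 0.000123). Spryd4, whose exons overlap those of Gls2 on the other strand, held 8.25% as many counts and was also lower at -0.64. The sources used here do not give whether reads were counted by strand, so reads of overlapping genes cannot be told apart. Glud1, glutamate dehydrogenase, had a value of 0.45 (95% interval -0.01 to 0.91) that was called only under limma-voom (a weighted test on log counts) and without wild-type replicate 4, where it was 0.27. The alanine aminotransferases Gpt and Gpt2 had values of 0.13 and 0.00 and were not called with 8 libraries, and without wild-type replicate 4 Gpt was called at 0.28 while the value of Gpt2 turned to -0.14, not called.

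The tryptophan branch held the largest fall of the module and 1 of its 4 rises. Acmsd, which diverts an intermediate of the kynurenine pathway away from NAD synthesis, had 5.21, 6.90, 7.38 and 9.21 CPM in the knockout and 47.2, 42.9, 47.3 and 42.7 CPM in the wild type. All knockout libraries were low, wild-type replicate 4 was like the other wild-type libraries, and the level was 6.28-fold lower in the knockout (log2 fold change -2.65 ± 0.17, adjusted p = 2.56e-06). The knockout counts were small, from 64 to 121 per library. The call held under all 18 alternative settings, with values from -2.78 to -2.10.

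Tdo2, tryptophan dioxygenase, the entry enzyme of the pathway, had 722, 903, 737 and 865 CPM in the knockout and 535, 460.0, 499 and 309.8 CPM in the wild type. It rose in the knockout with no overlap between groups (log2 fold change 0.84 ± 0.18, adjusted p = 0.00823), and by 0.70 without wild-type replicate 4. Kynu, kynureninase, had 57.6, 66.9, 61.1 and 68.3 CPM in the knockout and 118, 98.1, 119.8 and 55.7 CPM in the wild type. Wild-type replicate 4 lay below all knockout libraries, and Kynu was called barely, at -0.64 ± 0.21 (adjusted p = 0.0497), and at -0.81 without that library. Haao, which makes quinolinate precursors from hydroxyanthranilate, was not called at -0.38 (adjusted p = 0.0863), and neither was Aadat, a kynurenine aminotransferase, at 0.51 (adjusted p = 0.0988). Both were called without wild-type replicate 4, at -0.47 and 0.36. Kmo, kynurenine monooxygenase, at 0.18, and Afmid, a formamidase whose exons overlap those of the more abundant Tk1 on the other strand, at -0.09, were not called with or without that library.

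**Figure D2:**
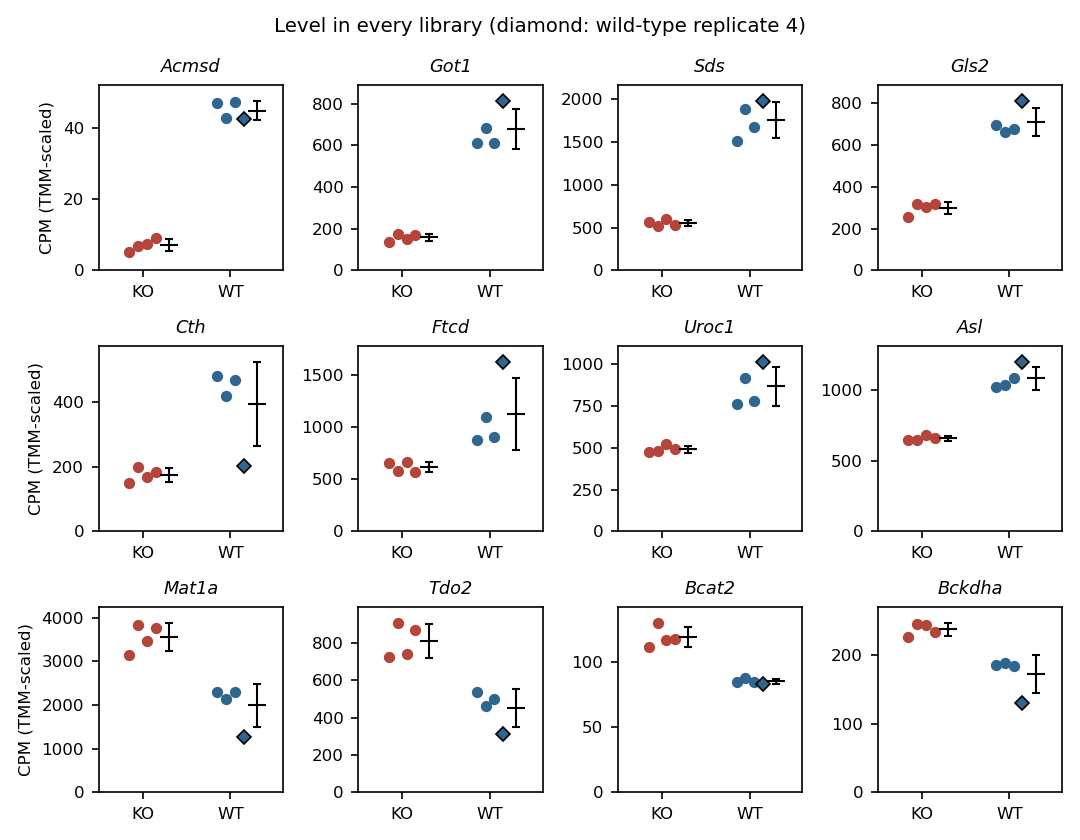
TMM-scaled CPM in every library for 12 genes of the module (points; diamond, wild-type replicate 4), with the mean and SD of each group beside the points. For Acmsd, Got1, Sds, Gls2, Uroc1, Asl and Ftcd every knockout point lies under every wild-type point, and for Cth the diamond alone, at 204 CPM, comes close to the knockout points, which reach 198.

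In tyrosine breakdown, the entry step and the ring-opening step were lower. Tat, tyrosine aminotransferase, a classic glucocorticoid-induced enzyme, had 1484, 1733, 1654 and 1753 CPM in the knockout and 2616, 2675, 2562 and 2109.8 CPM in the wild type. It fell by 0.59 ± 0.14 on the log2 scale with no overlap (adjusted p = 0.0116). Hgd, homogentisate dioxygenase, had 249, 304, 271 and 291 CPM in the knockout and 398, 370.1, 407 and 509 CPM in the wild type. It also fell without overlap, by 0.59 ± 0.14 (adjusted p = 0.015), and its call was lost without knockout replicate 1, 3 or 4. Hpd, which makes homogentisate, Gstz1, an isomerase, and Fah, the final hydrolase, had values of -0.12, -0.05 and -0.36 and were not called with or without wild-type replicate 4. Without that library the value of Gstz1 was 0.01.

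In histidine breakdown 3 of 4 genes fell, where 10.7% of all genes fell. Of these, Amdhd1 kept its call only where the library left out was wild-type replicate 4. Uroc1, urocanase, had 475, 479, 520.4 and 491 CPM in the knockout and 762, 918, 782 and 1009.9 CPM in the wild type. Ftcd, which passes a one-carbon unit from formiminoglutamate to tetrahydrofolate, had 652, 575, 660.0 and 573 CPM in the knockout and 876, 1094, 899.9 and 1617 CPM in the wild type. Neither overlapped between groups, and the log2 fold changes were -0.82 ± 0.14 for Uroc1 (adjusted p = 0.00214) and -0.87 ± 0.20 for Ftcd (adjusted p = 0.011). Wild-type replicate 4 was the highest library for both, and without it the values were -0.73 and -0.63. Amdhd1, imidazolonepropionase, averaged 132 ± 10.3 CPM in the knockout and 199.9 ± 45.8 CPM in the wild type (SD, n = 4 each) and fell by 0.61 ± 0.18 (adjusted p = 0.0325). Hal, histidine ammonia-lyase, which opens the pathway, had a value of -0.10 (95% interval -0.54 to 0.35) and was not called.

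Among the proline and ornithine genes, 2 of 4 fell, where 10.7% of all genes fell. All 4 fell without wild-type replicate 4, where 17.5% of all genes fell. Aldh4a1, which yields glutamate from the shared intermediate of proline and ornithine, had 125, 135, 131 and 145 CPM in the knockout and 203, 202, 219 and 156 CPM in the wild type. Every knockout library was below every wild-type library, at -0.54 ± 0.14 (adjusted p = 0.0198). Prodh2, hydroxyproline dehydrogenase, had 412, 310.2, 386 and 324 CPM in the knockout and 421, 563, 499 and 838 CPM in the wild type. The groups nearly touched, at 412 and 421 CPM, and the log2 fold change was -0.69 ± 0.21 (adjusted p = 0.0369), or -0.45 without wild-type replicate 4, the highest library (adjusted p = 0.00238). Prodh, proline dehydrogenase, at -0.49 (adjusted p = 0.0537), and Oat, ornithine aminotransferase, at -0.59 (adjusted p = 0.309), were not called with 8 libraries. Both were called without wild-type replicate 4, at -0.32 and -0.90, and Prodh also without wild-type replicate 1 (adjusted p = 0.0394). Oat was at 174 CPM in wild-type replicate 4 and at 856 to 967 CPM in the other 3 wild-type libraries.

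In methionine and sulfur metabolism, the first step rose and the last step to cysteine fell. Mat1a, which makes S-adenosylmethionine in hepatocytes, had 3152, 3839, 3474 and 3768 CPM in the knockout and 2296, 2131, 2299 and 1258 CPM in the wild type. It rose with no overlap, by 0.83 ± 0.19 (adjusted p = 0.012), and by 0.67 without wild-type replicate 4. Cth, cystathionine gamma-lyase, had 148, 198, 169 and 184 CPM in the knockout and 481, 418, 469.5 and 204 CPM in the wild type. It was 2.25-fold lower in the knockout (log2 fold change -1.17 ± 0.24, adjusted p = 0.00635), and the groups were wider apart without wild-type replicate 4, at -1.38. Cbs, cystathionine beta-synthase, the step before it, had 201, 259, 241 and 249 CPM in the knockout and 343, 350.3, 372 and 253 CPM in the wild type. Its groups overlapped through wild-type replicate 4, and the value of -0.48 ± 0.16 was just short of the call (adjusted p = 0.0509). Without that library it was -0.57 and called.

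Between those steps, Ahcy, which hydrolyses S-adenosylhomocysteine, averaged 1483 ± 121 CPM in the knockout and 1079 ± 180.4 CPM in the wild type (SD, n = 4 each), with a log2 fold change of 0.46 that was not called (adjusted p = 0.0583) and of 0.35 without wild-type replicate 4, then called. Gnmt, a glycine methyltransferase that uses up S-adenosylmethionine, and Bhmt, which remethylates homocysteine with betaine, had values of -0.20 and -0.42, not called, and of -0.30 and -0.74, called, without that library. Bhmt stood at 357 CPM in wild-type replicate 4 and at 1628 to 2065 CPM in the other wild-type libraries. Cdo1 and Csad, which lead from cysteine to taurine, had values of 0.44 and 0.18, with 95% intervals from -0.20 to 1.08 and from -0.55 to 0.91, and were not called in either fit. Without wild-type replicate 4 the value of Csad was -0.09. Zfp740, whose exons overlap those of Csad on the other strand, held 33.0% as many counts and had a value of 0.14, not called.

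Among branched-chain genes, the transaminase and 1 subunit of the ketoacid dehydrogenase rose and another subunit fell. Bcat2, the mitochondrial transaminase, which hepatocytes are known to express little, had 111, 129, 117 and 118 CPM in the knockout and 84.6, 87.8, 84.8 and 82.7 CPM in the wild type. It rose by 0.48 ± 0.12 with no overlap (adjusted p = 0.0155), and by 0.48 without wild-type replicate 4. The gene 0610005C13Rik, whose exons overlap those of Bcat2 on the other strand, held 237% as many counts. It was itself called higher at 0.41 (adjusted p = 0.0339). Bckdha, the E1 alpha subunit, averaged 237 ± 8.84 CPM in the knockout and 172 ± 27.7 CPM in the wild type (SD, n = 4 each) and rose by 0.46 ± 0.15 (adjusted p = 0.0461). Its neighbour B3gnt8, on the other strand, overlaps 1171 of the 1899 exon bases of Bckdha. B3gnt8 held 93.7% as many counts at 0.37, not called.

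Bckdhb, the E1 beta subunit, had 119, 91.6, 106 and 95.1 CPM in the knockout and 119, 173, 148 and 227 CPM in the wild type. The groups met at 119 CPM, and Bckdhb fell by 0.69 ± 0.19 (adjusted p = 0.028), or by 0.50 without wild-type replicate 4. Dbt, the E2 subunit, had a value of -0.34 (adjusted p = 0.223), not called, and of -0.50 without that library, called. In lysine breakdown, Aass, which carries out the first steps, had 236, 279, 273 and 269.7 CPM in the knockout and 354, 314, 319 and 169 CPM in the wild type. Its groups overlapped through wild-type replicate 4, and the value was -0.13 (95% interval -0.58 to 0.32), not called, or -0.30 without that library, called.

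In serine and glycine metabolism, Sds alone was called. Sds, serine dehydratase, which yields pyruvate from serine, had 565, 523, 603 and 532 CPM in the knockout and 1511, 1888, 1678 and 1978 CPM in the wild type. The groups did not overlap, and the level was 3.17-fold lower in the knockout (log2 fold change -1.67 ± 0.14, adjusted p = 1.82e-05). Plbd2 and Gm15690, whose exons overlap those of Sds on the other strand, held 57.2% and 27.3% as many counts. Both were called lower, at -1.60 and -1.43 (adjusted p = 0.000113 and 7.73e-05). Sdsl, its neighbouring paralog, had 32.2, 27.6, 28.4 and 28.1 CPM in the knockout and 29.4, 26.1, 29.0 and 18.6 CPM in the wild type. Those ranges overlapped, and the value of 0.14 ± 0.15 was not called (adjusted p = 0.537).

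Shmt2, the mitochondrial serine hydroxymethyltransferase, had 195, 199, 221 and 207 CPM in the knockout and 235, 263, 256 and 322 CPM in the wild type. The groups did not overlap, yet the value of -0.39 ± 0.14 was not called (adjusted p = 0.07), and it was called at -0.28 without wild-type replicate 4. Shmt1, the cytosolic form, at -0.07, and Gldc and Amt of the glycine cleavage system, at 0.06 and 0.08, were not called in either fit. Their 95% intervals ran from -0.41 to 0.28, from -0.52 to 0.65 and from -0.37 to 0.53. Smcr8, whose exons overlap those of Shmt1 on the other strand, held 27.3% as many counts and was called lower at -0.50.

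Among the companion genes, 15 of the 95 tested rose and 12 fell, which is 15.8% and 12.6%, where 10.4% of all genes rose and 10.7% fell. Their median log2 fold change was 0.15. Without wild-type replicate 4, 26 rose and 25 fell (27.4% and 26.3%, where 17.8% of all genes rose and 17.5% fell). Counts of rising and falling genes together were lower without any other library. They were 18, 13, 15 and 13 without knockout replicates 1, 2, 3 and 4. They were 25, 16 and 16 without wild-type replicates 1, 2 and 3. Calls over all genes went down too, from 2777 with 8 libraries to 2069, 1494, 1722 and 1489 without those knockout libraries. They came to 2665, 1796 and 2180 without those wild-type libraries. Of the companions named below, Agmat, Acad8, Ppm1k, Gcdh, Ethe1, Sqor, Suox, Prox1, Foxo1 and Klf15 lost their calls without at least 1 library other than wild-type replicate 4, with adjusted p from 0.0521 to 0.137 in those fits. Of the 8 urea cycle companions tested, Glul and Agmat rose and Gamt fell. Glul, glutamine synthetase, which binds the ammonium that escapes the urea cycle, had 635, 481, 559.8 and 507 CPM in the knockout and 172, 157, 169.8 and 179.9 CPM in the wild type. It was 3.22-fold higher in the knockout with no overlap (log2 fold change 1.69 ± 0.14, adjusted p = 1.58e-05), so that per kilobase it stood at 164 CPM in the knockout and 51.0 CPM in the wild type. Gamt, which methylates guanidinoacetate to creatine, fell by 1.39 ± 0.23 (adjusted p = 0.00185), and Agmat, agmatinase, rose by 0.39 ± 0.12 (adjusted p = 0.0458).

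Markers of hepatocytes, of liver zones and of other cell types had these values. Of all genes, 10.4% rose and 10.7% fell with 8 libraries, and 17.8% rose and 17.5% fell without wild-type replicate 4. Of 8 hepatocyte markers, Fgb rose (1.48), Apob rose (0.46), Alb fell (-0.52) and 5 were not called. Without wild-type replicate 4, 2 of the hepatocyte markers were called higher and 4 lower. Of 8 pericentral markers, 4 rose (Cyp2e1, Glul, Slc1a2 and Tbx3, of which Glul and Slc1a2 are also companions here), and their summed level was 7459 to 8370 CPM in the knockout and 1245 to 2878 CPM in the wild type. Most of that sum was Cyp2e1, which averaged 6414 CPM in the knockout and 1223 CPM in the wild type. The other 4 were not called, with values of 0.07 for Axin2, -0.24 for Lgr5, -0.44 for Cyp1a2 and -0.15 for Rgn. Without wild-type replicate 4, Cyp1a2 and Rgn were called lower, at -0.71 and -0.47, and 4 markers were called higher. Of 6 periportal markers, Hsd17b13 rose, Cdh1 fell and 4 were not called (1 higher and 3 lower without wild-type replicate 4), and their summed level was 3486 to 4213 CPM in the knockout and 4158 to 5035 CPM in the wild type. Of 6 Kupffer cell markers 3 rose, and 5 without wild-type replicate 4 (sums of 92.8 to 107 CPM in the knockout and 27.5 to 127 CPM in the wild type, or 27.5 to 44.3 CPM without wild-type replicate 4). Of 5 sinusoidal endothelial markers 4 rose (60.0 to 127 CPM in the knockout and 34.5 to 41.6 CPM in the wild type). The 1 cholangiocyte marker tested of 4, Spp1, rose (sums of 27.2 to 29.4 CPM in the knockout and 7.31 to 17.9 CPM in the wild type), and 3 of the 4 B and T cell markers tested fell (3.43 to 6.24 CPM in the knockout and 3.37 to 26.8 CPM in the wild type). Of 5 stellate cell markers 4 were tested and none was called with 8 libraries, and 1 was called higher without wild-type replicate 4. Their sums were 82.6 to 87.8 CPM in the knockout and 55.2 to 152 CPM in the wild type. Of 4 neutrophil markers only S100a9 was tested with 8 libraries, and it was not called. Ly6g and Mpo were at 0 everywhere, and the neutrophil sums were 2.19 to 3.95 CPM in the knockout and 1.37 to 4.50 CPM in the wild type. The part of these markers in the results was not tested.

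Of the 14 amino acid transporters, 6 fell and 2 rose, which is 42.9% and 14.3%, where 10.7% of all genes fell and 10.4% rose. Slc38a3, the sodium-coupled glutamine transporter of hepatocytes, had 865, 917, 972 and 905 CPM in the knockout and 2151, 2418, 2187 and 2503 CPM in the wild type. It was 2.53-fold lower in the knockout with no overlap (log2 fold change -1.34 ± 0.13, adjusted p = 4.69e-05). Slc25a22, a mitochondrial glutamate carrier, fell by 1.04 ± 0.14 (adjusted p = 0.000468), and Slc1a2, a glutamate transporter of the plasma membrane, rose by 1.05 ± 0.15 (adjusted p = 0.00063).

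At an unadjusted p under 0.05, 4 of the 16 branched-chain companions rose and 0 fell. DESeq2 called 3 higher and 0 lower, and limma-voom 4 and 0. In the edgeR test, where 10.4% of all genes rose and 10.7% fell, none of the 16 fell and 3 rose. They were Pccb, a subunit of propionyl-CoA carboxylase, at 1.30 ± 0.20 (adjusted p = 0.00125), Ppm1k, the phosphatase that activates the branched-chain ketoacid dehydrogenase, at 0.65, and Acad8, isobutyryl-CoA dehydrogenase, at 0.50. Of the 14 glycine, serine and one-carbon companions tested, 2 rose and 2 fell, which is 14.3% each, beside the same shares of all genes. Grhpr, a glyoxylate and hydroxypyruvate reductase, was 3.09-fold higher in the knockout, at 175 ± 9.87 CPM against 57.6 ± 14.1 CPM in the wild type (SD, n = 4 each, adjusted p = 8.35e-05). Agxt2, a mitochondrial alanine-glyoxylate aminotransferase, fell by 0.94 ± 0.13. Aldh1l1, a folate enzyme, fell by 0.77 ± 0.12, and its antisense partner Gm15756, with 26.8% as many counts, was also called lower at -0.76.

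Among 11 sulfur companions, Suox, sulfite oxidase, rose by 0.86, Sqor, the sulfide quinone oxidoreductase, rose by 0.66, and Ethe1, a persulfide dioxygenase, fell by 0.83. Of 4 lysine companions, Gcdh, glutaryl-CoA dehydrogenase, rose by 0.43. Neither the 4 tryptophan companions nor the 5 phenylalanine and tyrosine companions held a called gene in the edgeR test. At an unadjusted p under 0.05 there were 0 of the tryptophan genes and 1 higher and 1 lower of the tyrosine genes. DESeq2 called 0 in both lists, while limma-voom called 1 higher and 1 lower of the tryptophan genes and 2 higher and 3 lower of the tyrosine genes. Of the 4 amino acid synthesis genes tested, 0 were called by edgeR, DESeq2 or limma-voom, or passed an unadjusted p of 0.05.

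Of the 15 regulators, 3 rose and 2 fell, which is 20% and 13.3%, where 10.4% of all genes rose and 10.7% fell. Ppara, a fatty acid-sensing nuclear receptor known in mouse liver to lower amino acid catabolic genes, had 34.1, 34.7, 32.1 and 31.1 CPM in the knockout and 16.7, 16.9, 13.2 and 15.2 CPM in the wild type. It was 2.12-fold higher in the knockout with no overlap (log2 fold change 1.08 ± 0.13, adjusted p = 0.000244). Prox1, a homeobox factor of hepatocytes, rose by 0.68 ± 0.18 (adjusted p = 0.0206) alongside its antisense partner Prox1os, which held 21.9% as many counts, and Foxo1, a factor restrained by insulin signalling, rose by 0.45 ± 0.12 (adjusted p = 0.0224). Klf15, a factor that drives amino acid catabolic genes on fasting, fell by 0.45 ± 0.14 (adjusted p = 0.0381). With library-size scaling, which moves the median of all genes by 0.54, the value of Klf15 was 0.13.

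**Figure D3:**
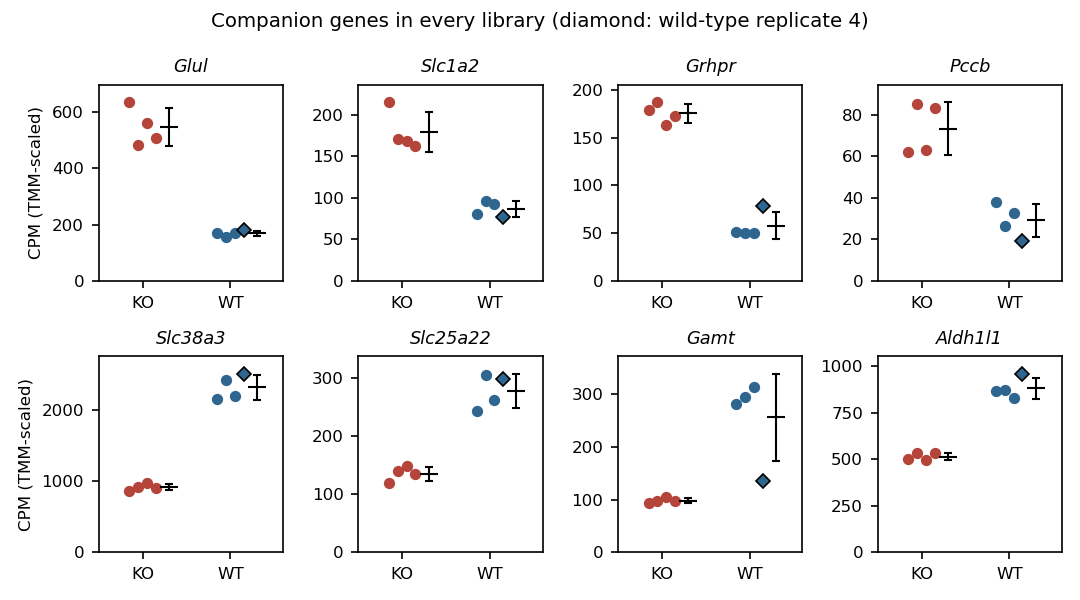
TMM-scaled CPM in every library for 8 companion genes (points; diamond, wild-type replicate 4), with the mean and SD of each group beside the points. Glul, Slc1a2, Grhpr and Pccb are higher and Slc38a3, Slc25a22, Gamt and Aldh1l1 lower in every knockout library than in any wild-type library.

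Wild-type replicate 4 differed from its group across the module. Its log2 ratio to the mean of the other 3 wild-type libraries had a median of -0.58 over the 52 genes, against -0.12 over the 7446 tested genes with a mean of at least 10 CPM. It lay below -1 for 13 genes, with Oat at -2.41, Bhmt at -2.37, Got2 at -2.18, Csad at -2.05 and Arg1 at -1.85, and above 0 for 15, with Ftcd and Prodh2 highest at 0.76. Across the 52 genes, which share these libraries and are not replicates, the ratio rose with the GC content of the transcript (Pearson r = 0.44, Spearman rho = 0.56, as a description), and over the 7446 genes less so (0.20 and 0.25, for the 7413 with a GC value). The median coefficient of variation of the 52 genes was 7.83% in the knockout and 22.1% in the wild type, or 6.58% without wild-type replicate 4. The 52 genes together took 3.62% to 3.96% of the counts outside the mitochondrial genome in the knockout libraries, against 4.90%, 5.04%, 4.92% and, in replicate 4, 4.12% in the wild-type libraries.

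**Figure D4:**
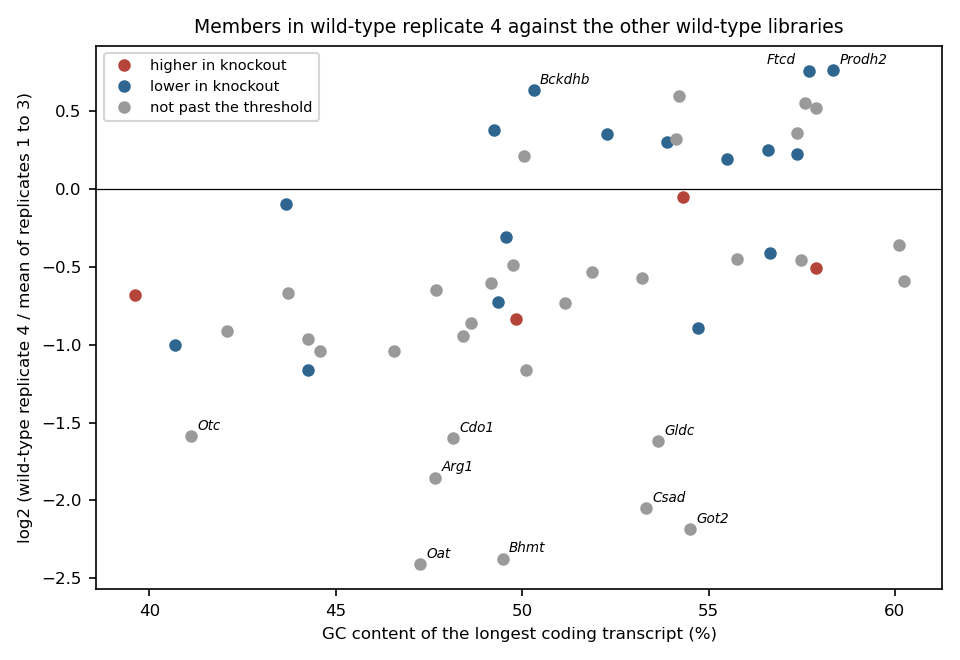
Log2 ratio of wild-type replicate 4 to the mean of wild-type replicates 1 to 3 for each of the 52 genes, against the GC content of its longest coding transcript in percent, coloured by the call in the comparison of knockout with wild type. Oat, Bhmt, Got2, Csad and Arg1 lie lowest, none of them called, while Ftcd and Prodh2, both called lower in the knockout, lie highest.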

How the data were processed

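RNA of mouse liver was sequenced in 8 libraries, 4 labelled miR-93 knockout and 4 wild type. The deposited table holds raw counts per Ensembl gene ID that the authors made, with no normalization. The submitters' processing notes name cutadapt 4.2, STAR 2.7.10a and the mm39 build. The counting tool, its annotation, its use of strand and its handling of reads that match several places are not given in the sources used here. Totals ran from 5085860 to 10966019 counts per library.

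Counts were read into R 4.3.3. Symbols, exon lengths, overlaps and 3′ UTRs came from GENCODE M21 (GRCm38), which named 52073 of 56748 IDs. Coordinates are printed only with the RefSeq sequences of GRCm38.p6. Knockout was compared with wild type by edgeR 4.0.16 (quasi-likelihood, robust, two-sided) with TMM factors and filterByExpr with a minimum count of 10, which left 13204 of 25937 detected genes. P-values were adjusted by Benjamini-Hochberg over all genes tested, with a threshold of 0.05. SE is the absolute log2 fold change over the square root of the F statistic. The steps were tested on simulated data. The labels name no batch, so the fit had no covariate.

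The 52 genes, the companion and marker lists and the tests were chosen with earlier results of these data known. Every member is named. Values per library are given for the 3 smallest p of a branch (2 in branches of 5 or fewer genes) and for any log2 fold change of at least 1 in size. Up to 3 called companions per list with the smallest p are named, with Glul and Klf15 always. Overlapping genes and the marker genes were named after their values were seen or from the marker lists.

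Alternatives were DESeq2 1.42.0 size factors and Wald test, upper-quartile factors, library size only, mitochondrially encoded genes left out, no filter, a mean of at least 1 CPM, limma 3.58.1 voom with quality weights, a minimum fold of 1.5, a block on the replicate number and each library left out in turn. Figures were drawn with matplotlib 3.10.9.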

Additional observations from a re-analysis of the deposited data

Results flagged for a closer look

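Each value below lay further from its 3 group mates than Dixon's test allows at its 95% level (0.829 for 4 libraries). Of 112 groups of 4 examined, 16 held such a value, where chance flags about 1 in 20 groups, and 12 of the 16 were in wild-type replicate 4.

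In wild-type replicate 4, Otc was low at 178 CPM, Arg1 at 562 CPM, Gpt2 at 246 CPM, Oat at 174 CPM, Mat1a at 1258 CPM, Ahcy at 809 CPM, Bckdha at 130.5 CPM and Gldc at 16.9 CPM. Gstz1 was high there at 655 CPM and Fah at 1144 CPM. The library had counts for 14287 genes, against 18412 to 19131 in its group mates, and the 52 genes took 4.12% of its counts outside the mitochondrial genome, against 4.90% to 5.04%.

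Among knockout libraries, Arg1 (999 CPM) and Bhmt (932 CPM) were low in replicate 1, and Haao (388 CPM) and Fah (696 CPM) were high in replicate 3.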

How the results depend on the processing

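With 8 libraries and TMM scaling, 4 of the 52 genes rose and 16 fell, 2777 genes were called in all, and 27 companions were called. Library size only gave 0 rising, 2 falling, 685 in all and 5 companions. No filter gave 3 rising and 10 falling, where 5.37% of all genes rose and 4.43% fell. The DESeq2 Wald test gave 7 rising and 22 falling, where 13.7% of all genes rose and 13.4% fell. limma-voom gave 10 rising, 26 falling, 4984 in all and 47 companions, where 18.4% of all genes rose and 19.3% fell. A minimum fold of 1.5 gave 0 rising, 4 falling, 667 in all and 9 companions. Leaving out 1 library gave 2 to 10 rising, 9 to 28 falling, 1489 to 4853 in all and 13 to 51 companions. With the replicate number as a block, 2 rose, 7 fell, 1267 genes were called and 12 companions were. Same-numbered libraries did not deviate together (r from -0.19 to -0.03), and none of the 8 libraries correlated best with its own number in the other group, so the numbers were not used to pair libraries. Signs turned with library size only for Afmid (0.44), Haao (0.13), Hpd (0.50), Hgd (0.033), Gstz1 (0.55), Fah (0.30), Hal (0.37), Prodh (0.17), Prodh2 (0.0064), Gnmt (0.31), Cbs (0.031), Dbt (0.13), Aass (0.33), Shmt1 (0.43), Shmt2 (0.24) and Klf15 (0.13). They turned with limma-voom for Gpt2 (-0.10), Gstz1 (0.010), Csad (-0.019), Gldc (-0.077) and Amt (-0.088), without mitochondrially encoded genes for Gpt2 (-0.0021), and with no filter for Gstz1 (0.018). With 1 library left out, values crossed 0 for Gpt2 (-0.14 to 0.081), Hal (-0.26 to 0.0051), Shmt1 (-0.18 to 0.018), Afmid (-0.17 to 0.015), Gstz1 (-0.066 to 0.014), Csad (-0.088 to 0.39), Gldc (-0.15 to 0.17) and Amt (-0.065 to 0.22). Apart from Hgd, Prodh2 and Klf15, none of the genes in these lists was called with 8 libraries. The cause was not tested. Acmsd and Got1 stayed called under all 18 alternatives, and Gls2 and Sds under all but library size only. Wild-type replicate 4 had 1131446 counts outside the mitochondrial genome, against 4581983 to 5557023 in the other wild-type libraries. The part of this depth in the spread of its group was not tested.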
